A study of Mus musculus with 6 samples.

Results

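The expression of 10 genes of sugar uptake and breakdown was followed in CFPAC-1 cells, an established human pancreatic adenocarcinoma (PAAD) line, after transfection with a siRNA against KRT7. These are the glucose transporter SLC2A1 and the glycolysis genes HK2, GPI, PFKP, ALDOA, GAPDH, PGK1, ENO1, PKM and LDHA. The members were fixed as a list of 10 Ensembl identifiers, out of 30543 genes in the count table, and the list was drawn up with earlier results of these data known, although its rule uses no measured value. All 10 of them passed the filter on low counts, as did 15736 genes in all. The table holds identifiers and no symbols, so each symbol used here is the one paired with its identifier when the list was drawn up.

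Both groups were CFPAC-1 cells. The si-Control group (n = 3 libraries) received a negative control siRNA and the si-KRT7 group (n = 3 libraries) a siRNA against KRT7, a keratin of simple epithelia. Neither the siRNA duplex used for sequencing nor the dose or the time after transfection is given in the sources used here, and the labels do not say whether the replicates were separate cultures. A legend in the study speaks of independent experiments for a set of panels that includes the RNA-seq ones, without naming the libraries. If the libraries were not separate cultures, the p-values measure the spread between these libraries, which may be technical. The sample labels name the mouse and the submitters' processing notes name the GRCm39 build, a mouse assembly, whereas the cell line and the identifiers are human. The name tables used here are those of the mouse and matched 0 identifiers, so the level of KRT7, epithelial markers, the other genes of the pathway and human sequences were not analysed here.

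Glycolysis splits glucose into pyruvate in the cytosol and yields ATP without oxygen. SLC2A1 brings glucose into the cell, the enzymes from HK2 to ALDOA spend ATP to make triose phosphates, and those from GAPDH to PKM earn it back as pyruvate is made. LDHA turns pyruvate into lactate, which returns NAD+ to the GAPDH step. Many tumours, pancreatic ones among them, run this route at a high rate even when oxygen is present, and GAPDH is widely used as a reference gene in RT-qPCR.

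The libraries held between 28208896 and 36315802 counts. Over all genes tested, si-KRT7 replicate 2 stood apart from its group: its Pearson correlation was 0.982 with each of the other si-KRT7 libraries, which correlated at 0.992 with each other (log2 CPM, across genes, which are not independent replicates). Its correlation with each si-Control library was 0.986, higher than with its own group. The fit of each gene is therefore given with all libraries and without this one. As the library was left out for its departure in these same data, p-values without it tend to be too small. They are given as description only. Levels are in CPM, counts scaled to library size after TMM normalization. Since gene length was not used, CPM values are compared between libraries and never between genes.

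In si-KRT7 cells, 9 of the 10 genes had a lower fitted level than in si-Control cells and HK2 a higher one. Their log2 fold changes ran from -0.46 for GPI to 0.07 for HK2. A log2 fold change below 0 was found in 48.3% of all genes tested. Below the si-Control mean in CPM lay 9 of the 10 genes in si-KRT7 replicate 1, 6 in replicate 2 and 9 in replicate 3. None of the 10 genes passed an adjusted p of 0.05 in edgeR's quasi-likelihood test, where 1.35% of all genes tested were called lower and 0.712% higher. Nor did any come near the absolute log2 fold change of 1 that the study used as a limit in its cohorts. Limma-voom also called 0 of them, beside 1.96% of all genes tested in either direction. The DESeq2 Wald test called 1, GPI, beside 3.97% of genes lower in that test. With sample quality weights, which count a library that departs from its group for less, limma-voom called 7 lower and 1 higher, beside 21.8% and 21.8% of all genes tested. The weights were estimated from these same data, so these calls are description only, like those without si-KRT7 replicate 2. The median log2 fold change of the 10 genes in edgeR was -0.15, beside 0.01 for all genes tested. A log2 fold change at or under the members' median was found in 25.5% of all genes tested. Without regard to sign, the median log2 fold change was 0.153 for the members and 0.176 for all genes tested. At an unadjusted p under 0.05, 4 of the 10 genes were lower (GPI, LDHA, SLC2A1 and PGK1) and 0 were higher, beside 9.08% and 9.48% of all genes tested. In 5 genes all 3 si-KRT7 libraries lay below all 3 si-Control libraries, which was so for 13.0% of all genes tested. The opposite arrangement was found in 0 of the 10 genes and in 11.3% of all genes tested. Without si-KRT7 replicate 2 the groups were separate in all 10 genes, 9 lower and 1 higher, beside 30.8% and 29.8% of all genes tested. Under library size alone, upper quartile scaling, DESeq2's size factors and TMM without the members or without the 100 most abundant genes, all 10 fitted directions stayed as given. Scaling to GAPDH raised the median of all genes tested from 0.01 to 0.18, and on that scale the values of PFKP, ALDOA, PGK1 and PKM were above 0 but still below that median.

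**Figure D1:**
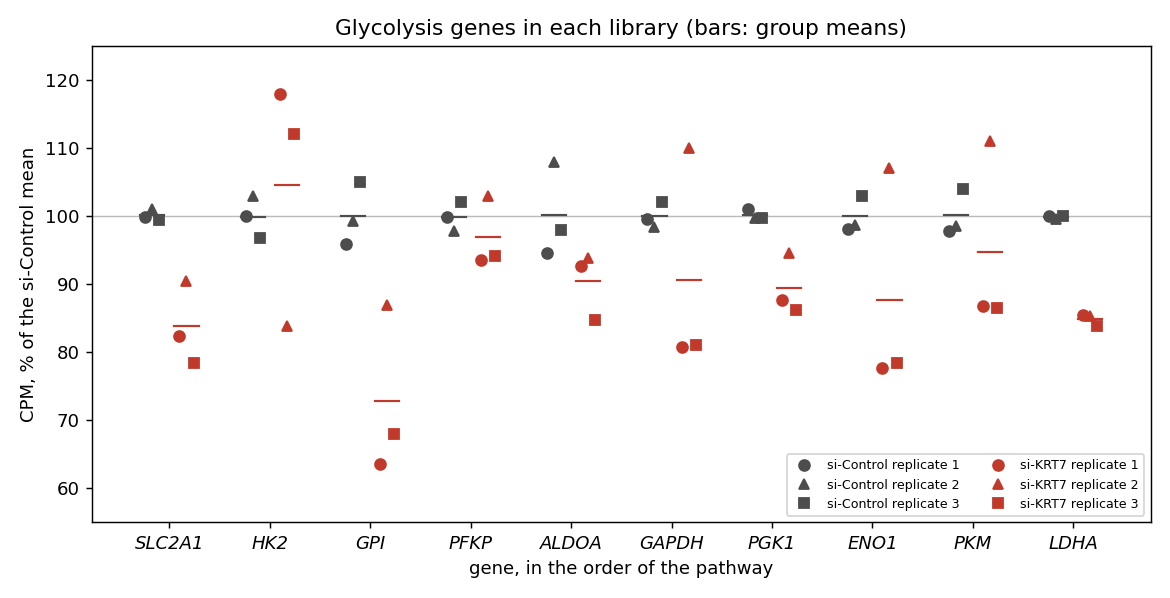
CPM of each of the 10 genes in each library (points), as a percentage of the gene's si-Control mean, with group means as bars. The si-Control points lie between 94.5% and 108%. In 8 genes si-KRT7 replicate 2 (triangles) lies above the other si-KRT7 libraries (44% of all genes tested), and in HK2 below them.

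Glucose uptake is served by SLC2A1 (ENSG00000117394), the transporter also known as GLUT1. It stood at 350, 353 and 348 CPM in si-Control replicates 1, 2 and 3, and at 289, 317 and 275 CPM in those of si-KRT7. All si-KRT7 libraries lay below all si-Control libraries, with replicate 2 the nearest. The group means were 350.5 ± 2.17 CPM (SD, n = 3) and 293.5 ± 21.5 CPM (SD, n = 3), which gave a log2 fold change of -0.26 (95% interval -0.43 to -0.08). With an adjusted p of 0.126 in edgeR the difference missed the threshold over all genes. Without si-KRT7 replicate 2 SLC2A1 fell by 0.32 on the log2 scale (adjusted p = 4.37e-08 in edgeR).

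Of the enzymes that prepare glucose for cleavage, GPI had the largest fitted difference of the 10 genes. GPI (ENSG00000105220) converts glucose 6-phosphate into fructose 6-phosphate, and its protein is also secreted as a cytokine called autocrine motility factor. It was counted at 322, 333 and 352 CPM in the si-Control libraries and at 213, 292 and 228 CPM in the si-KRT7 libraries. The groups did not overlap, and si-KRT7 replicate 2 was the library of its group nearest to the controls. The log2 fold change was -0.46 (standard error 0.12, 95% interval -0.73 to -0.19, adjusted p = 0.0925 in edgeR), so that the fitted level was 72.8% of si-Control. Of all genes tested, 6.09% had a log2 fold change at or under that of GPI. The DESeq2 Wald test did call GPI lower (log2 fold change -0.46, adjusted p = 0.00973), as did edgeR without si-KRT7 replicate 2 (log2 fold change -0.61, adjusted p = 2.31e-11).

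HK2, the hexokinase that traps glucose as glucose 6-phosphate at the mitochondrial surface, had a different pattern from the other genes. HK2 (ENSG00000159399) stood at 85.2, 87.8 and 82.3 CPM in si-Control replicates 1, 2 and 3. It stood at 100.1, 71.3 and 95.3 CPM in si-KRT7 replicates 1, 2 and 3. Replicates 1 and 3 of si-KRT7 thus lay above all controls and replicate 2 below them. Across all libraries the difference was within the spread, with a log2 fold change of 0.07 (95% interval -0.23 to 0.36, adjusted p = 0.830 in edgeR). HK2 rose by 0.20 on the log2 scale when si-KRT7 replicate 2 was left out (adjusted p = 0.00103 in edgeR), and its fitted direction turned to -0.03 when replicate 1 was left out instead.

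PFKP, the platelet-type phosphofructokinase that commits sugar to glycolysis, had the smallest fitted difference of the 10 genes. PFKP (ENSG00000067057) was at 189, 185 and 193 CPM in si-Control cells and at 176, 195 and 178 CPM in si-KRT7 cells. The groups overlapped because si-KRT7 replicate 2 exceeded every control. Its log2 fold change of -0.05 had a 95% interval of -0.21 to 0.12 (adjusted p = 0.793 in edgeR). Without si-KRT7 replicate 2 it fell by 0.10 on the log2 scale (adjusted p = 0.0328).

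ALDOA, the aldolase that cleaves fructose 1,6-bisphosphate into triose phosphates, had far fewer counts than the other members. ALDOA (ENSG00000149925) was counted between 350 and 528 times per library, where counting error alone amounts to 4.65% of its si-Control level. Reads that also fall on an overlapping gene model may go uncounted, and this was not tested. It stood at 12.8, 14.6 and 13.3 CPM in si-Control cells and at 12.6, 12.7 and 11.5 CPM in si-KRT7 cells. The groups were separate, but by a margin within counting error. The log2 fold change was -0.15 (95% interval -0.39 to 0.10, adjusted p = 0.511 in edgeR), and ALDOA was the single member not called without si-KRT7 replicate 2 (adjusted p = 0.181).

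Among the enzymes of the stage that returns ATP, GAPDH, ENO1 and PKM had the same pattern over the libraries. GAPDH (ENSG00000111640) oxidises glyceraldehyde 3-phosphate, and it stood at 2475, 2443 and 2533 CPM in si-Control cells and at 2007, 2722 and 2014 CPM in si-KRT7 cells. Replicates 1 and 3 of si-KRT7 were at 80.8% and 81.1% of the si-Control mean, while replicate 2 was at 110%, above every control. The spread of the si-KRT7 libraries was 411 CPM (SD, n = 3) against 45.6 CPM (SD, n = 3) among the controls. The log2 fold change of -0.14 had a 95% interval from -0.41 to 0.13 (adjusted p = 0.556 in edgeR).

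ENO1 (ENSG00000074800), the enolase that makes phosphoenolpyruvate, stood at 2537, 2553 and 2671 CPM in the si-Control libraries. It stood at 2009, 2772 and 2028 CPM in the si-KRT7 libraries. As with GAPDH, replicates 1 and 3 lay below all controls, at 77.7% and 78.4% of their mean, and replicate 2 above them, at 107%. With all libraries the log2 fold change was -0.19 (95% interval -0.47 to 0.09, adjusted p = 0.454 in edgeR).

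PKM (ENSG00000067225) encodes the pyruvate kinase of most tissues and tumours, whose spliced forms M1 and M2 are not separated in gene counts. It was at 3244, 3270 and 3440 CPM in si-Control cells and at 2881, 3699 and 2869 CPM in si-KRT7 cells. Here too replicate 2 of si-KRT7 was the highest of all libraries and replicates 1 and 3 the lowest. The log2 fold change was -0.08 (95% interval -0.31 to 0.16, adjusted p = 0.749 in edgeR). Without si-KRT7 replicate 2, the 3 genes fell by 0.31 (GAPDH), 0.36 (ENO1) and 0.21 (PKM) on the log2 scale, with adjusted p-values of 2.04e-09, 3.59e-10 and 1.17e-06 in edgeR.

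PGK1 and LDHA did not have the values above the controls that GAPDH, ENO1 and PKM had in si-KRT7 replicate 2. PGK1 (ENSG00000102144), the kinase that makes the first ATP of the pathway's second stage, was at 669, 663 and 663 CPM in si-Control cells and at 584, 629 and 573 CPM in si-KRT7 cells. Every si-KRT7 library lay below every control, and the controls were close to each other (SD 3.37 CPM, n = 3). The log2 fold change was -0.16 (95% interval -0.31 to -0.01, adjusted p = 0.250 in edgeR). Without si-KRT7 replicate 2 PGK1 fell by 0.21 on the log2 scale (adjusted p = 5.66e-06).

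LDHA (ENSG00000134333) had the most even values of the 10 genes. Its si-Control libraries stood at 450, 446 and 449 CPM and its si-KRT7 libraries at 383, 382 and 376 CPM. The groups were separate, the spread within each was small (SD 1.90 and 3.94 CPM, n = 3 each), and replicate 2 of si-KRT7 lay with the other libraries of its group. The 3 si-KRT7 libraries were at 85.4%, 85.3% and 83.8% of the si-Control mean. Even so the test, which takes part of its variance from genes of similar abundance, gave an adjusted p of 0.0962 for the log2 fold change of -0.24 (standard error 0.06, 95% interval -0.38 to -0.10, edgeR). Leaving out si-KRT7 replicate 2 kept the value at -0.24 and brought the adjusted p to 8.04e-07. A two-sided exact permutation test gave p = 0.1 for LDHA, GPI, SLC2A1, PGK1 and ALDOA, the smallest p that 3 libraries against 3 allow. Full separation of the groups fixes this p, so it restates the separation given for each of these genes and adds nothing to it. Among all genes tested, the groups were separate with si-KRT7 lower in 13.0% and higher in 11.3%.

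**Figure D2:**
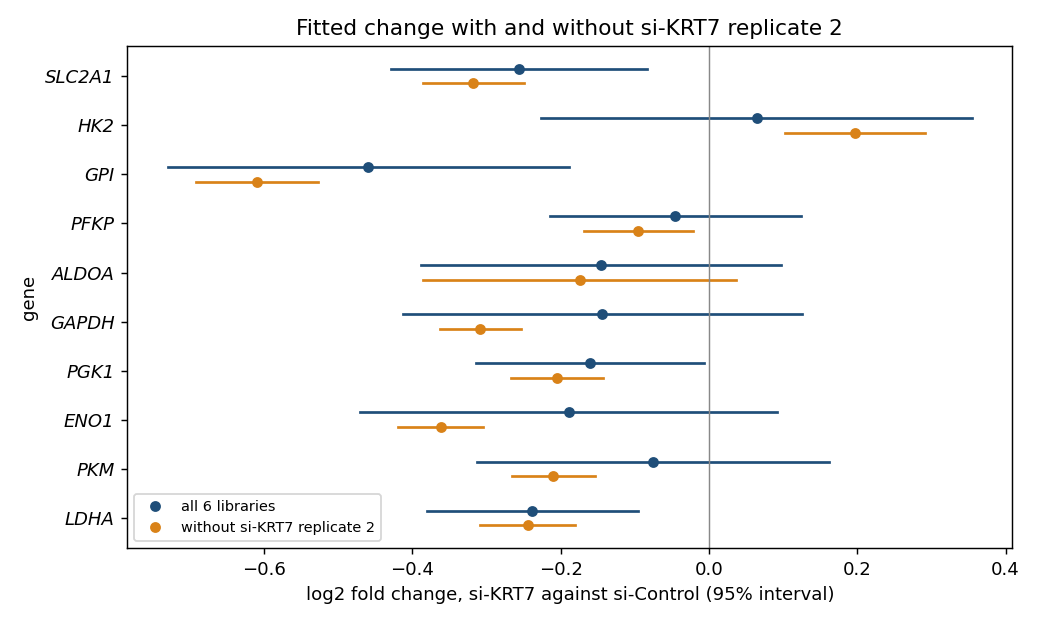
Log2 fold change of each gene in si-KRT7 against si-Control cells with its 95% interval, fitted by edgeR with all 6 libraries (blue) and without si-KRT7 replicate 2 (orange). The widest shifts between the fits are those of ENO1, from -0.19 to -0.36, and GAPDH, from -0.14 to -0.31, whereas LDHA stays at -0.24.

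How far the calls rest on a single library is shown by the fit without si-KRT7 replicate 2. In that fit 8 of the 10 genes were called lower and HK2 higher at an adjusted p of 0.05, and ALDOA was not called. Of all 16202 genes tested there, 22.0% were called lower and 20.9% higher, against 1.35% and 0.712% with all libraries. The biological coefficient of variation was 0.0485 in that fit and 0.130 with all libraries. The median log2 fold change of the members was -0.23, beside -0.01 over all genes tested. The fits without any one of the other libraries called 0 of the 10 genes, but they called at most 0.542% of all genes tested, so this count says little about the members. What sets si-KRT7 replicate 2 apart was not tested, and its depth, the lowest of the 6 libraries at 28208896 counts, moves with it. In 9 of the 10 genes replicate 2 was the highest or the lowest of the si-KRT7 libraries, and over all genes tested that share was 87.0%. It was the highest in 8 of the 10 genes, beside 44% of all genes tested.

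Together the 10 genes took 1.03%, 1.03% and 1.06% of all counts in si-Control replicates 1, 2 and 3, and 0.888%, 1.08% and 0.882% in those of si-KRT7. The si-KRT7 libraries 1 and 3 thus lay below the controls and library 2 above them. The mean shares were 1.04% ± 0.0173 (SD, n = 3) and 0.950% ± 0.114 (SD, n = 3), and their difference of -0.0888 percentage points was smaller than the spread among the si-KRT7 libraries. Without replicate 2 the si-KRT7 mean share was 0.885% (2 libraries). GAPDH, ENO1 and PKM made up between 79.7% and 82.9% of the members' counts, so the summed share mostly follows these 3 genes.

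**Figure D3:**
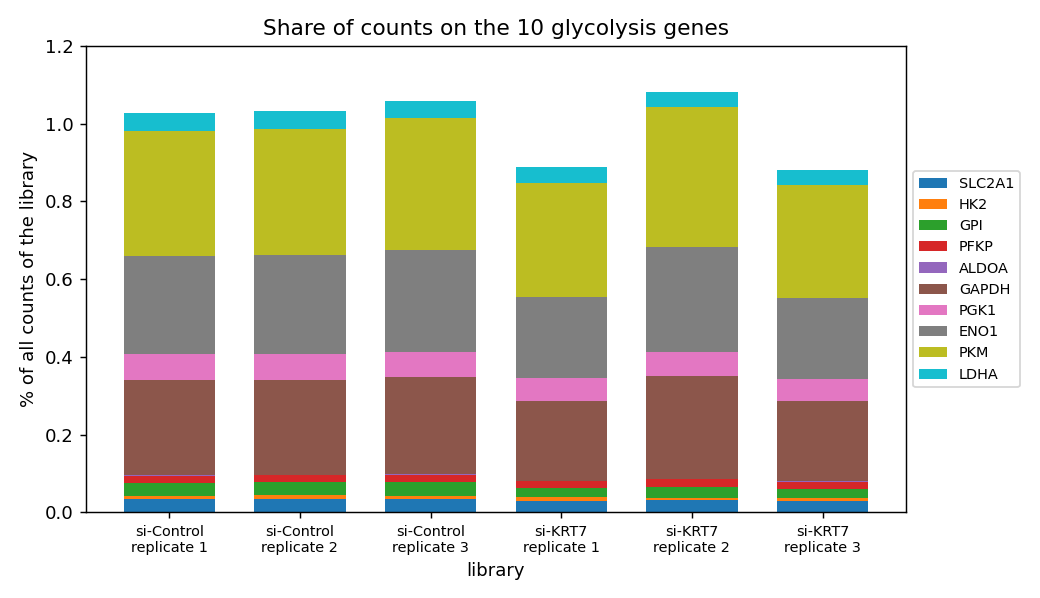
Percentage of all counts of each library that fell on the 10 genes, stacked by gene. The total is 0.888% and 0.882% in si-KRT7 replicates 1 and 3 and 1.08% in replicate 2, with the 3 si-Control libraries between 1.03% and 1.06%.

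Because GAPDH is a common reference, the other 9 genes were also expressed per GAPDH count, as an RT-qPCR normalised to it would be. The values on that scale are to be read against the shift of all genes given above. GPI had 13.0, 13.6 and 13.9 counts per 100 GAPDH counts in si-Control replicates 1, 2 and 3, and 10.6, 10.7 and 11.3 in those of si-KRT7. Here the library that stood apart on the CPM scale lay with its group, and the means were 13.5 ± 0.463 (SD, n = 3) and 10.9 ± 0.384 (SD, n = 3). The edgeR fit scaled to GAPDH nevertheless gave GPI an adjusted p of 0.213 (log2 fold change -0.31), and called 1 gene of all 15736.

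ENO1 kept almost a fixed ratio to GAPDH, with 104.1 ± 1.51 counts per 100 GAPDH counts (SD, n = 3) in si-Control cells and 100.9 ± 0.880 (SD, n = 3) in si-KRT7 cells. All si-KRT7 libraries (100.1, 101.8 and 100.6) lay just below all si-Control libraries (102.5, 104.5 and 105.4). PKM lay on the other side, at 133.6 ± 2.39 (SD, n = 3) and 140.6 ± 4.11 (SD, n = 3), with replicate 2 of si-KRT7 at 135.9 against a highest control of 135.8. Of the 9 genes, 2 were thus lower and 1 higher without overlap on this scale, beside 5.79% and 14.6% of all genes tested.

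The remaining genes overlapped between the groups once scaled to GAPDH. LDHA, which separated the groups on the CPM scale, stood at 19.1, 14.0 and 18.6 counts per 100 GAPDH counts in si-KRT7 cells, on either side of the 17.7 to 18.3 of the controls. HK2 ranged from 2.62 to 4.99 in si-KRT7 cells around controls of 3.25 to 3.60. PFKP, ALDOA, PGK1 and SLC2A1 likewise had their lowest value of all libraries in si-KRT7 replicate 2 on this scale. GAPDH itself was at 110% of its si-Control mean there, and at 80.8% and 81.1% in replicates 1 and 3. Its level in replicate 2 lowers every value per GAPDH count in that library by construction.

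**Figure D4:**
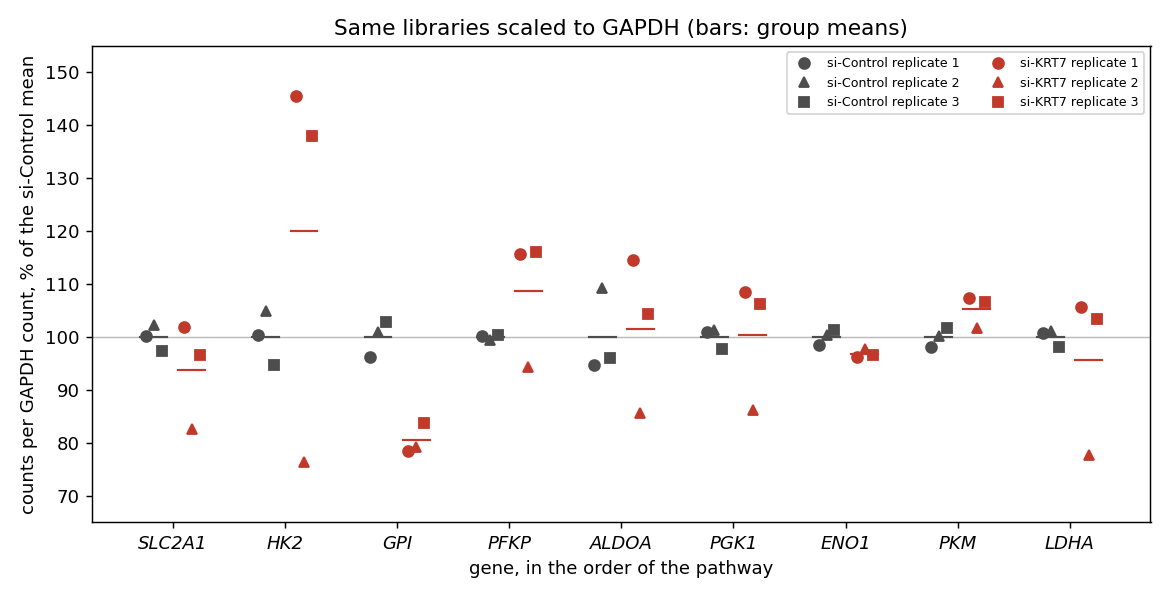
Counts per GAPDH count of the other 9 genes in each library (points), as a percentage of the gene's si-Control mean, with group means as bars. GPI is lower in all 3 si-KRT7 libraries (10.6 to 11.3 counts per 100 GAPDH counts against 13.0 to 13.9). In SLC2A1, HK2, PFKP, ALDOA, PGK1 and LDHA si-KRT7 replicate 2 (triangles) has the lowest value of all libraries. GAPDH itself was at 110% of its si-Control mean in that library.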

How the data were processed

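The authors deposited raw counts, whole numbers of reads per gene and library, for 6 libraries. The submitters' processing notes name STAR 2.7.11b and GRCm39, and the counting tool and annotation are not given in the sources used here. Reads shared with processed pseudogenes or overlapping genes may have been split or dropped. No per-sample column was left unused. Total counts ran from 28208896 to 36315802.

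R 4.3.3 and edgeR 4.0.16 were used (filterByExpr, TMM, glmQLFit, glmQLFTest) over all 15736 genes that passed, with Benjamini-Hochberg adjustment. Standard errors are the log2 fold change over the square root of F, and 95% intervals use the fit's degrees of freedom. The exact permutation test was two-sided on mean CPM. Limma 3.58.1 (voom) and DESeq2 1.42.0 were alternatives, beside other scalings, filters, each library left out and a replicate block. The scripts were tested on simulated data with larger changes than those of the members and no outlying library. That test does not show how the fits behave here. All 10 members were to be named. A list of 70 further pathway genes was written by symbol, and 0 could be matched, so it was not used. The members and lists were chosen with earlier results of these data known. For correlations the prior count of log2 CPM was 2.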

Additional observations from a re-analysis of the deposited data

How the results depend on the processing

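With all libraries in edgeR, 0 of the 10 genes passed the adjusted p, and 4 passed an unadjusted p of 0.05. The number called was 1, in each case GPI, without a filter on counts (4.41% of all genes called in either direction), in edgeR's likelihood ratio test (7.59%) and in the DESeq2 Wald test, and 8 (7 lower, 1 higher) with limma-voom sample quality weights (43.6%). Across the fits that each left out 1 library it ran from 0 to 9, the 9 coming without si-KRT7 replicate 2 (42.9% of all genes), while the other 5 such fits called between 0.0372% and 0.542% of all genes. No alternative put a member past both limits. In the other settings tried, among them limma-voom, the robust fit and every scaling, 0 were called. The median log2 fold change of the 10 members was -0.15. Scaled to GAPDH, it was 0.005 over the 9 members other than GAPDH. The median of all genes moved with it, and the gap between the medians was -0.16 and -0.18 on the 2 scales. The median of the 10 members ran from -0.23 to -0.11 with a library left out. Scaling to GAPDH turned the log2 fold changes of PFKP to 0.12, of ALDOA to 0.022, of PGK1 to 0.005 and of PKM to 0.074, none of them called. With a library left out that of HK2 ran from -0.031, without si-KRT7 replicate 1, to 0.197, without si-KRT7 replicate 2. With the replicate block 0 members and 0.483% of all genes were called, and the members' median was -0.16. Same-numbered libraries had correlations of 0.0520, -0.0798 and -0.0728 in their deviations from the group means. The si-KRT7 group mean includes replicate 2, which stood apart, so these values cannot tell whether same-numbered libraries shared a culture or batch. The cause of these shifts was not tested beyond what each setting changes by construction. Counting error was at most 1.86% of the si-Control level outside ALDOA, so depth limits ALDOA most.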
